A study of Caenorhabditis elegans with 6 samples.

Results

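The gonadal innexins of Caenorhabditis elegans were described here as 5 genes, inx-8, inx-9, inx-14, inx-21 and inx-22. They were chosen by name, and each was found once among the 46756 WormBase gene identifiers of the count table. All 5 were among the 18428 genes that had at least 10 counts summed over the 6 libraries and were therefore tested. Whole hermaphrodites of strain ACH93 were collected on adulthood day 2, after growth in groups of 10 worms per plate (3 libraries) or as solitary animals with 1 worm per plate (3 libraries), to ask which transcripts, chemosensory receptors above all, respond to population density. Both groups carried the same integrated transgenes in an N2 background, an exopher reporter and a mitochondrial reporter driven by the myo-3 promoter in body wall muscles, and both were fed E. coli OP50 at 20 °C. The labels call the libraries of a group biological replicates, but the sources used here do not say which plates were pooled for one library, so the p-values measure the spread between these libraries. Each library held 57077055 to 62794403 counts for 10 worms per plate and 55176436 to 62269301 counts for solitary worms.

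Innexins are the proteins that form gap junctions in invertebrates. In the hermaphrodite gonad, a hemichannel of the somatic cells docks to a hemichannel of the germ cells and joins the cytoplasm of the sheath to that of the germline and the oocytes. The somatic hemichannel is built from INX-8 and INX-9, which act redundantly in the sheath and the distal tip cell. The germline hemichannel holds INX-14 together with either INX-21, a pair needed for germ cell proliferation, or INX-22, a pair known for holding back oocyte meiotic maturation while sperm are absent.

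The somatic and the germline innexins lie in separate parts of the genome, and in each set there is a pair of neighbours on one strand. On WBcel235, inx-8 (WBGene00002130) lies at IV:11673843-11675635 and inx-9 (WBGene00002131) at IV:11676354-11678497, both on the plus strand, with 718 bases between them. Each has 1 annotated transcript of 4 exons and a coding length of 1146 bases. The germline genes inx-22 (WBGene00002144, I:3608518-3611844) and inx-21 (WBGene00002143, I:3611942-3618317) also follow each other on the plus strand, with only 97 bases between them. The coding length is 1386 bases for inx-22 and 1443 bases for inx-21, and the longest intron of inx-21 spans 1217 bases. The third germline gene, inx-14 (WBGene00002136, I:7350309-7352235, minus strand), stands alone and is compact, with introns of at most 72 bases and a coding length of 1302 bases. The counts were made within exons, whose combined length was 1356 bases for inx-8, 1301 for inx-9, 1577 for inx-14, 1656 for inx-21 and 1589 for inx-22. The exons of inx-9 overlap those of ZK792.4 on the other strand by 62 bases (4.77% of its exonic length), and those of inx-14 overlap kbrl-1 by 78 bases (4.95%). The strand setting of the counting is not given in the sources used here, so reads in these short stretches cannot be assigned to one gene of each pair.

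**Figure D1:**
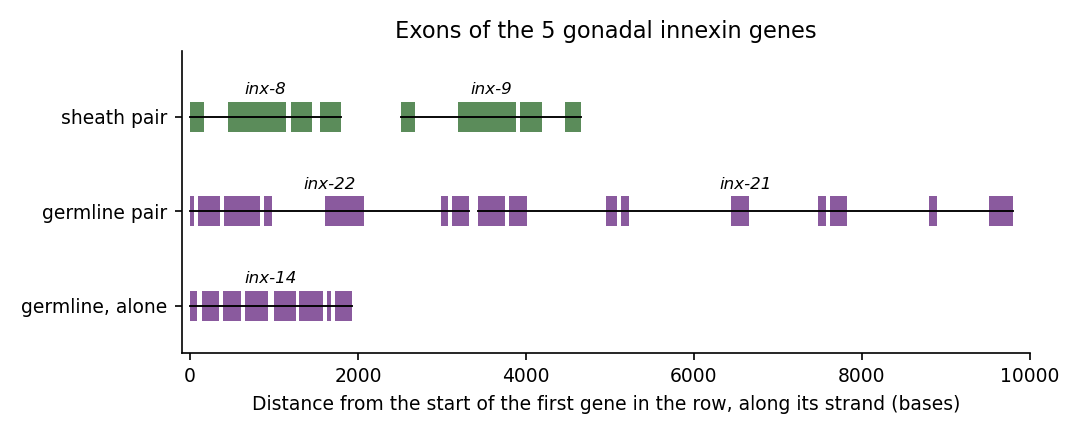
Exon maps of the 5 gonadal innexin genes, drawn to scale along each gene's strand, with the distance in bases from the start of the first gene of the row on the x axis. Boxes are the exons of all annotated transcripts and lines the gene spans. The 718 bases between inx-8 and inx-9 are visible, whereas the 97 bases between inx-22 and inx-21 leave hardly any space.

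Of the 5 transcripts, 3 were abundant and 2 were lower. Levels are given as CPM, the share of a library's counts put on the usual common scale after TMM (a trimmed-mean scaling between libraries), divided by the exonic length in kilobases, which allows genes to be compared. The germline genes inx-14 and inx-22 and the sheath gene inx-8 were abundant, while inx-21 and inx-9, 1 gene of each compartment, were lower. The level of inx-14 averaged 105 ± 8.23 CPM per kilobase in worms grown 10 per plate and 106 ± 6.59 in solitary worms (SD, n = 3 each, as for the other levels). For inx-22 the averages were 104 ± 4.87 in worms grown 10 per plate and 105 ± 1.27 in solitary worms, and for inx-8 they were 91.1 ± 7.68 in worms grown 10 per plate and 97.7 ± 4.20 in solitary worms. Among the 18345 tested genes with an exonic length, these 3 ranked 1396, 1422 and 1616 by level. The proliferation-linked inx-21 averaged 35.3 ± 0.930 CPM per kilobase in worms grown 10 per plate and 33.0 ± 1.34 in solitary worms, and ranked 4362. The second sheath gene, inx-9, averaged 17.8 ± 1.14 in worms grown 10 per plate and 18.6 ± 1.08 in solitary worms, and ranked 5634. All 5 thus lay in the upper 30.7% of the tested genes.

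**Figure D2:**
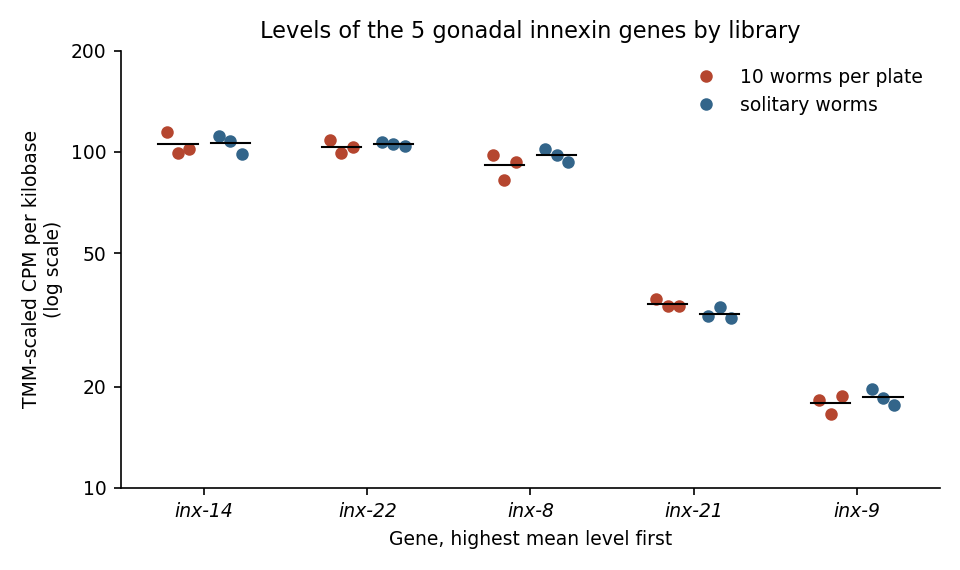
Levels of the 5 gonadal innexin genes in each library, as TMM-scaled CPM per kilobase of exonic length on a log axis, with worms grown 10 per plate on the left and solitary worms on the right for each gene. Points are libraries and bars group means. The genes inx-14, inx-22 and inx-8 lie between 82.7 and 115, inx-21 between 32.0 and 36.4, and inx-9 between 16.6 and 19.8.

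Neighbours within the abundant trio did not separate from each other in level, whereas the steps down to inx-21 and to inx-9 exceeded the spread of all 6 libraries. The ratio of inx-14 to inx-22 in a single library ranged from 0.947 to 1.05 and was above 1 in 4 of 6 libraries. The ratio of inx-22 to inx-8 was above 1 in 6 of 6 libraries, at 1.05 to 1.20, although the ranges of the 2 genes over the libraries overlapped. The level of inx-8 was 2.38 to 3.14 times that of inx-21, and the level of inx-21 was 1.64 to 2.10 times that of inx-9. For the ratio of inx-8 to inx-21 the groups did not overlap, at 2.68, 2.38 and 2.67 in worms grown 10 per plate, against 3.14, 2.83 and 2.92 in solitary worms. For inx-21 to inx-9 the values were 2.00, 2.10 and 1.86 in worms grown 10 per plate, against 1.64, 1.86 and 1.82 in solitary worms. There the groups were barely apart, at 1.861 for the lowest library of worms grown 10 per plate and 1.860 for the highest solitary one. No range of levels was shared by inx-8 and inx-21, or by inx-21 and inx-9. The pairs of this paragraph were set by the order of levels in these data. Both ratios with inx-21 contain a gene whose groups did not overlap on their own, as for 18.3% of all tested genes. The share of non-overlapping ratios over other gene pairs was not counted. These are descriptions with no test, and they rest on the annotated exonic lengths.

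Within the sheath pair, inx-8 supplied most of the transcript. In the same library, the level of inx-8 was 5.36, 4.99 and 4.97 times that of inx-9 for 10 worms per plate, against 5.16, 5.27 and 5.31 times for solitary worms. The groups overlapped, with means of 5.11 ± 0.217 for 10 worms per plate and 5.25 ± 0.0801 for solitary worms.

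Within the germline set, inx-14 and inx-22 were about equally abundant and both exceeded inx-21. The ratio of inx-22 to inx-21 was 2.98, 2.84 and 2.97 in worms grown 10 per plate, against 3.29, 3.05 and 3.26 in solitary worms. The 2 groups did not overlap, with means of 2.93 ± 0.0760 for 10 worms per plate and 3.20 ± 0.129 for solitary worms, a difference of -8.42%. This ratio contains inx-21, whose groups did not overlap on their own either, as for 18.3% of all tested genes. The ratio of inx-14 to inx-21, which was added after the values had been seen, averaged 2.97 ± 0.154 for 10 worms per plate and 3.22 ± 0.189 for solitary worms, and there the groups overlapped. The ratio of inx-14 to inx-22, added likewise, averaged 1.01 ± 0.0356 for 10 worms per plate and 1.01 ± 0.0515 for solitary worms.

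Summed over each compartment, the mean ratio of germline to sheath innexins was slightly higher in worms grown 10 per plate, a difference that was not tested. The germline sum of inx-14, inx-21 and inx-22 divided by the sheath sum of inx-8 and inx-9 was 2.24, 2.35 and 2.15 in worms grown 10 per plate, against 2.06, 2.13 and 2.11 in solitary worms. The groups did not overlap, and the mean ratio was 6.83% higher in worms grown 10 per plate (2.25 ± 0.0976, against 2.10 ± 0.0364 in solitary worms). Without the second library of worms grown 10 per plate, which was the lowest of all 6 for both sheath genes, the difference was 4.44% (2.20 for 10 worms per plate and 2.10 for solitary worms). The lowest library of worms grown 10 per plate (2.15) lay close to the highest of solitary worms (2.13), and the ratio is given as a description with no test. Among single genes, 18.3% of all tested genes did not overlap between groups either.

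**Figure D3:**
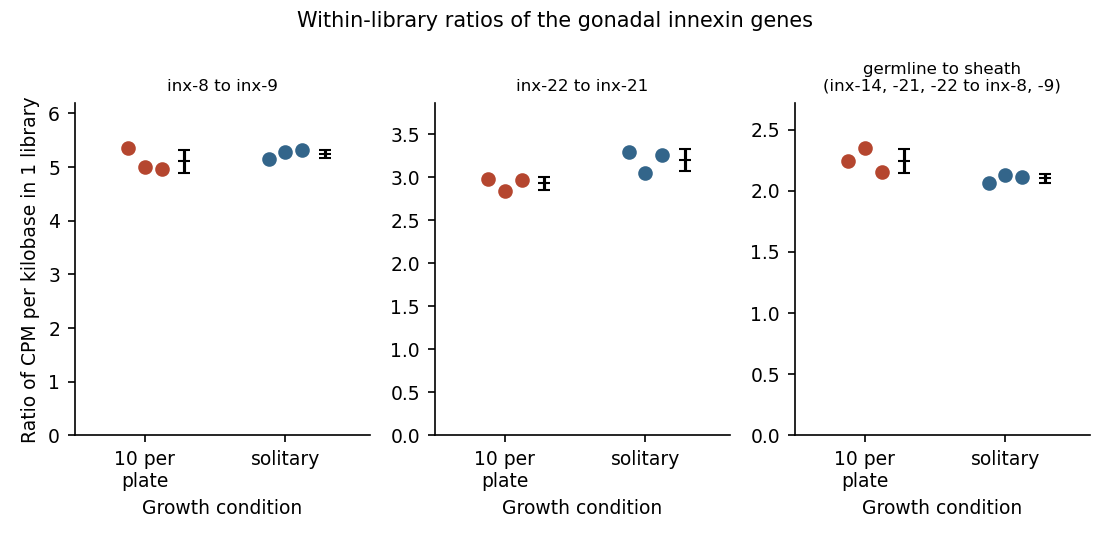
Ratios of levels within a single library (y axis, ratio of CPM per kilobase, starting at 0), with worms grown 10 per plate on the left and solitary worms on the right of each panel. Points are libraries, and the black marks give the mean and SD of 3. The groups overlap for inx-8 to inx-9 but not for inx-22 to inx-21 (mean 2.93 for 10 worms per plate and 3.20 for solitary worms) or germline to sheath innexins (mean 2.25 for 10 worms per plate and 2.10 for solitary worms).

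None of the 5 gonadal innexins passed the test for growth condition. A call needed an adjusted p under 0.05 together with an absolute log2 fold change above 1, in the quasi-likelihood test of edgeR with Benjamini-Hochberg adjustment over all tested genes. By that rule 0 of 5 were called, against a background of 0.0109% of all tested genes (2 genes). With the adjusted p alone 0 of 5 were called, against 0.239% (44 genes). At an unadjusted p under 0.05 there were again 0 of 5, against 11.9% of all tested genes. In DESeq2 0 of 5 had an adjusted p under 0.05, against 2.36% of all tested genes (435 genes), although 9292 had no adjusted p there. Under some alternatives a member passed the unadjusted p of 0.05 but not the adjusted one, namely inx-8 with no count minimum and without the first library of worms grown 10 per plate, and inx-21 with library totals in place of TMM and without the second solitary library. The log2 fold changes below are worms grown 10 per plate over solitary worms, so a negative value means a lower level at 10 worms per plate. RNA of whole worms does not tell fewer cells of a type from less RNA per cell, which holds for every gene below.

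The shared germline subunit inx-14 had nearly the same level in both groups. Its libraries gave 181, 156 and 161 CPM in worms grown 10 per plate, against 176, 170 and 156 CPM in solitary worms. The highest library and the second lowest thus belonged to the same group. The log2 fold change was -0.01 (SE 0.06, 95% interval -0.15 to 0.13, adjusted p = 0.969 in edgeR), so that the interval in linear terms ran from 0.901-fold to 1.09-fold.

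The maturation-linked subunit inx-22 had the smallest standard error of the 5. It gave 173, 157 and 164 CPM in worms grown 10 per plate, against 170, 167 and 166 CPM in solitary worms. The solitary libraries lay inside the range of the libraries of worms grown 10 per plate. The log2 fold change was -0.02 (SE 0.04, 95% interval -0.12 to 0.07, adjusted p = 0.877 in edgeR). The signs for inx-14 and inx-22 depended on the settings, since both turned positive with library totals in place of TMM, and again without the second library of worms grown 10 per plate (0.03 for inx-14 and 0.01 for inx-22). The value of inx-14 was also positive without the third library of worms grown 10 per plate (0.01) and without the first solitary library (0.02).

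The proliferation-linked subunit inx-21 had the smallest p of the 5 and was the only one above zero. Its values were 60.3, 57.6 and 57.7 CPM in worms grown 10 per plate, against 53.7, 57.1 and 52.9 CPM in solitary worms. The groups did not overlap, but the second solitary library lay close to the lower libraries of worms grown 10 per plate. The log2 fold change was 0.10 (SE 0.05, 95% interval -0.01 to 0.21, adjusted p = 0.452 in edgeR, 0.0626 before adjustment). An exact two-sided permutation test of the 6 values gave p = 0.1, the smallest that 3 libraries against 3 allow. It was the 1 member of 5 whose groups did not overlap, and 18.3% of all tested genes did not overlap either.

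The abundant sheath subunit inx-8 had the largest negative value. It gave 132, 112 and 126 CPM in worms grown 10 per plate, against 138, 133 and 127 CPM in solitary worms. Only the first library of worms grown 10 per plate reached into the solitary range, and the second was the lowest of all 6. The log2 fold change was -0.10 (SE 0.06, 95% interval -0.23 to 0.03, adjusted p = 0.568 in edgeR, 0.127 before adjustment), and the exact permutation test gave p = 0.2. Leaving out the second library of worms grown 10 per plate brought the value to -0.04.

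Its neighbour and partner inx-9 had values of the same sign. It gave 23.7, 21.5 and 24.4 CPM in worms grown 10 per plate, against 25.7, 24.1 and 22.9 CPM in solitary worms, with overlap of the groups. The log2 fold change was -0.06 (SE 0.08, 95% interval -0.23 to 0.10, adjusted p = 0.810 in edgeR). The 95% intervals of the 5 genes, read as folds, reached from 0.851 for the lower end of inx-8 to 1.16 for the upper end of inx-21, so changes beyond these limits lie outside the intervals of all 5.

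**Figure D4:**
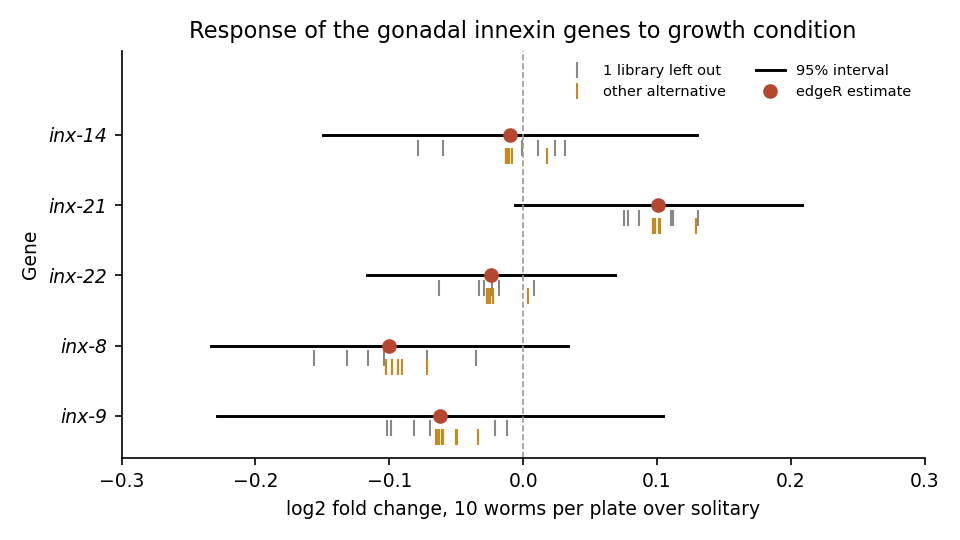
Log2 fold change of each gonadal innexin gene, worms grown 10 per plate over solitary worms (x axis), with germline genes above and sheath genes below. Points and black lines are the edgeR estimates with their 95% intervals, grey ticks the values with 1 library left out, and ochre ticks the other alternatives. Every 95% interval includes zero, from -0.10 for inx-8 to 0.10 for inx-21 as estimates.

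The spread among libraries was small for all 5 genes, and a single library was the lowest for inx-8, inx-9 and inx-22. The coefficient of variation among libraries of worms grown 10 per plate was 2.63% for inx-21 and 8.43% for inx-8, the lowest and the highest of the set. In solitary worms it lay between 1.21% for inx-22 and 6.22% for inx-14. At the mean count over the 6 libraries, counting error alone would give 1.01% for inx-14 and 2.68% for inx-9, the most and the least deeply counted of the 5. The second library of worms grown 10 per plate was the lowest of all 6 for inx-8 (-12.4% of the gene's mean), inx-9 (-9.20%) and inx-22 (-5.38%), but not for inx-21 (1.82%). The first library of each group was above the mean for inx-14 (8.50% for 10 worms per plate and 5.48% for solitary worms).

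A description of likeness across the 6 libraries also put the sheath pair together. The root mean square distance between centred log2 CPM profiles was 0.0423 for inx-8 and inx-9, the smallest among the 10 pairs of members, and 0.125 for inx-8 and inx-21, the largest. The points share libraries and depth, and with 6 libraries many genes lie closer still. Out of 10490 genes with a mean count of at least 100, the nearest to inx-8 were B0272.3 (0.0191) and cTel55X.1 (0.0228). The nearest to inx-9 were nhr-45 (0.0175), a nuclear hormone receptor gene, and ZC8.6 (0.0181). Nearest to inx-14 were B0495.7 (0.0118) and H12D21.10 (0.0157). For inx-21 they were hsr-9 (0.0115), a homolog of a mammalian DNA damage response protein, and vps-15 (0.0137), a regulator of the class III PI3-kinase. Nearest to inx-22 were F42F12.3 (0.00587) and csn-2 (0.0119), a subunit of the COP9 signalosome.

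Among the 25 innexin genes, all of which were tested, the 5 gonadal innexins held 62.2% of the summed level per kilobase. The germline members held 42.6% and the sheath members 19.6%. The gonadal genes ranked 1 (inx-14), 2 (inx-22), 3 (inx-8), 5 (inx-21) and 9 (inx-9) in the family. The most abundant innexins outside the set were the widely expressed inx-3, at 73.7 ± 2.18 CPM per kilobase in worms grown 10 per plate and 71.4 ± 4.71 in solitary worms, followed by inx-2 and inx-12 with means of 27.0 and 21.4 over the 6 libraries. The order of these levels holds for whole adult worms, in which each tissue contributes by its share of the RNA.

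**Figure D5:**
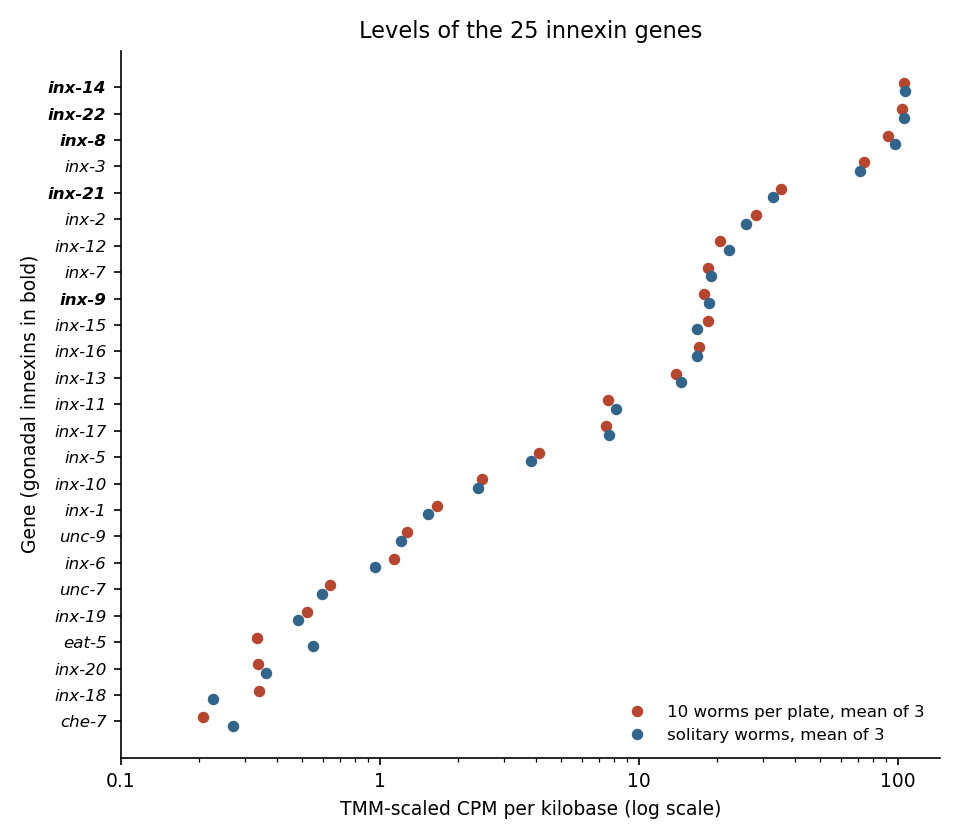
Levels of the 25 innexin genes on a log axis (x, TMM-scaled CPM per kilobase of exonic length), ranked from the highest at the top, with the gonadal innexins in bold. Upper points are means of 3 libraries of worms grown 10 per plate and lower points means of 3 libraries of solitary worms. Gonadal genes take ranks 1, 2, 3, 5 and 9, and the pairs of points lie apart mainly among genes of low level such as eat-5.

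The other innexins did not pass the test either. Of the 20 genes outside the gonadal set, 0 had an adjusted p under 0.05 in edgeR, against 0.239% of all tested genes. DESeq2 also called 0, against 2.36%, but it gave no adjusted p to 9292 of the 18428 tested genes. Which of the 20 were among those was not counted. In edgeR 12 had a positive and 8 a negative log2 fold change. The median was 0.05, against 0.00 over all tested genes. Of these 20, 1 passed an unadjusted p of 0.05 (against 11.9% of all tested genes). This was eat-5, a pharyngeal innexin, with only 22, 39 and 30 counts in worms grown 10 per plate, against 54, 56 and 35 counts in solitary worms. Its log2 fold change was -0.72 (SE 0.30, adjusted p = 0.367 in edgeR), and the groups overlapped. The next smallest p-values belonged to inx-15, an intestinal innexin (log2 fold change 0.15, adjusted p = 0.433 in edgeR), and inx-18 (0.60, adjusted p = 0.458). The median for the 5 gonadal innexins was -0.02, with 1 positive and 4 negative values.

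Genes that work with these junctions in oocyte maturation and ovulation were followed as a list of 28, covering the response of the sheath and the oocyte to the major sperm protein (MSP) signal, cAMP signalling in the sheath, the oocyte cell cycle and the contraction of sheath and spermatheca. None had an adjusted p under 0.05 in edgeR (0 of 28, against 0.239% of all tested genes). DESeq2 also called 0 of 28, against 2.36%, though 9292 of the 18428 tested genes had no adjusted p there. In edgeR 19 had positive and 9 negative values, and the median log2 fold change was 0.05. At an unadjusted p under 0.05 7 had positive and 3 had negative values, against 11.9% of all tested genes, and 9 of 28 genes did not overlap between groups, against 18.3% of all tested genes. The smallest p-values among positive genes were those of vab-1, an Eph receptor that binds MSP (0.13, adjusted p = 0.258 in edgeR), lin-41, a repressor of oocyte maturation (0.13, adjusted p = 0.262), and gsa-1, the stimulatory G protein alpha subunit that acts in the sheath (0.37, adjusted p = 0.270).

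The 3 smallest p-values among negative genes belonged to components of the contractile apparatus, which body wall muscle expresses too. They were mup-2 and tnt-2, both troponin T genes, with log2 fold changes of -0.18 (adjusted p = 0.158 in edgeR) and -0.17 (adjusted p = 0.283), and lev-11, the tropomyosin gene (-0.13, adjusted p = 0.346). With no minimum count mup-2 and tnt-2 passed an adjusted p of 0.05 in edgeR (0.00731 for the smaller), and tnt-2 did so without the third solitary library (0.0240), with changes far under the fold threshold. In those settings 745 and 391 of all tested genes passed as well, against 44 with the minimum and all libraries. Listed genes were longer than most, with a median exonic length of 2261 bases, against 1223 bases over all tested genes. With the trend of each library with gene length removed, 1 gene had a positive and 3 had negative values at an unadjusted p under 0.05, against 6.83% of all tested genes in that setting, and the median log2 fold change was 0.02. The gonadal innexins, with a median length of 1577 bases, hardly moved under the same removal (inx-21 stayed at 0.10 and inx-8 at -0.09).

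Markers of the tissues that carry these junctions were present in every library. Oocyte markers (rme-2, oma-1, oma-2, puf-5, lin-41 and spn-4) summed to 2649 to 2702 CPM per kilobase in worms grown 10 per plate, against 2615 to 2657 in solitary worms. Markers of germline stem cells (glp-1, fbf-1, fbf-2, sygl-1 and lst-1) summed to 431 to 476 in worms grown 10 per plate, against 427 to 478 in solitary worms. The ranges overlapped for both lists. No marker gene of any list had an adjusted p under 0.05 in edgeR, against 0.239% of all tested genes. Some markers also belong to the maturation and ovulation list, namely oma-1, oma-2, puf-5, lin-41, ceh-18, acy-4, fln-1 and ipp-5. They are therefore not a separate check.

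The defining genes of the gonadal sheath were detected at far lower levels than inx-8. The sum of lim-7, ceh-18 and acy-4 was 6.98 to 7.78 CPM per kilobase in worms grown 10 per plate, against 6.24 to 6.51 in solitary worms, so the groups did not overlap. Taken singly, 18.3% of all tested genes did not overlap either. All 3 had positive log2 fold changes, of 0.29 for lim-7, 0.23 for ceh-18 and 0.11 for acy-4, with adjusted p-values of 0.383, 0.487 and 0.755 in edgeR. The estimates for inx-8 and inx-9 were -0.10 and -0.06, none of these 5 genes passed the test, and the difference between markers and innexins was not tested. The distal tip cell marker lag-2, the ligand that keeps germline stem cells dividing, stood at 0.699 to 0.974 in worms grown 10 per plate, against 0.606 to 0.656 in solitary worms (log2 fold change 0.47, adjusted p = 0.408 in edgeR). The part of these markers in the ratios of germline to sheath innexins was not tested.

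The listed markers of sperm, the source of the MSP signal, had low levels, and no msp gene was among them. The 3 tested markers, spe-9, spe-41 and fer-1, summed to 3.93 to 4.33 CPM per kilobase in worms grown 10 per plate, against 4.79 to 5.48 in solitary worms, without overlap. Taken singly, 18.3% of all tested genes did not overlap either. A further marker, spe-11, had 0 to 2 counts in a library and was not tested. Most of the sum was spe-41, a sperm calcium channel gene, with a log2 fold change of -0.33 (adjusted p = 0.210 in edgeR, and 0.0463 in DESeq2). DESeq2 called 435 genes, 2.36% of the 18428 tested, although 9292 of those had no adjusted p there and could not be called. The other markers had log2 fold changes of -0.41 for spe-9 (adjusted p = 0.485 in edgeR) and 0.24 for fer-1 (adjusted p = 0.814), and the groups overlapped for fer-1. The spermathecal markers fkh-6, fln-1 and ipp-5 summed to 68.3 to 73.3 in worms grown 10 per plate, against 62.2 to 69.9 in solitary worms, with overlap. Most of that sum was fln-1 (log2 fold change 0.11, adjusted p = 0.432 in edgeR). The values of fkh-6 and ipp-5 were negative (-0.20 and -0.08, adjusted p = 0.770 and 0.869 in edgeR). Outside the gonad, the sums overlapped between groups for body wall muscle (106 to 113 in worms grown 10 per plate, against 104 to 117 in solitary worms), intestine (7627 to 8956 in worms grown 10 per plate, against 7595 to 8384 in solitary worms) and neurons (315 to 327 in worms grown 10 per plate, against 321 to 328 in solitary worms). The intestine sum was nearly all vit-2 and vit-6, the muscle sum mostly unc-54 and the neuron sum mostly snb-1. The less abundant myo-3 did not overlap between groups (log2 fold change 0.13, adjusted p = 0.303 in edgeR), and neither did unc-119 (-0.15, adjusted p = 0.593). Both were thus among the 18.3% of all tested genes without overlap. The transgenes of both groups may add reads to unc-54 and unc-119, which were among the muscle and neuron markers.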

How the data were processed

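PolyA RNA of whole worms was sequenced in 6 libraries, 3 per growth condition. The authors trimmed reads with Trimmomatic 0.36, aligned them to WBcel235 with STAR 2.5.2b and counted unique reads within exons with featureCounts of Subread 1.5.2, and they deposited the counts per gene without normalization. The annotation release and the strand setting they used are not given in the sources used here. Their table of normalized counts was not used. Library totals were 55176436 to 62794403. At the mean count over the 6 libraries, counting error was largest for inx-9 among the members, at 2.68%. Symbols were found for 43798 of the 46756 identifiers, and exonic lengths (union of exons, Ensembl annotation release 115 of WBcel235) for 46581.

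Genes with at least 10 counts over the 6 libraries were fitted in edgeR 4.0.16 (R 4.3.3) with TMM scaling, robust dispersions and the quasi-likelihood F test. The SE of a log2 fold change was taken as its size over the root of the F statistic. The exact permutation tests were two-sided over 3 against 3 libraries. Alternatives were DESeq2 1.42.0 or its size factors, plain library totals, another low-count filter (filterByExpr) or none, a block for the replicate number, removal of a length trend (lowess, span 0.3), coding length, and each library left out. The named genes are the members, the 3 most abundant other innexins, the 3 smallest unadjusted p-values of each list (in each direction for the ovulation list), the tissue markers, and for each member the 2 genes nearest in profile. Genes whose groups merely do not overlap were counted but named only under this rule. Members, lists and markers were chosen with earlier results of these data known. No sequences of these genes were used here.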

Additional observations from a re-analysis of the deposited data

How the results depend on the processing

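No member was called under any of the 14 alternatives, and the smallest adjusted p was 0.328 for inx-8, 0.573 for inx-9, 0.700 for inx-14, 0.314 for inx-21 and 0.726 for inx-22. The smallest unadjusted p was 0.0247 for inx-8 and 0.0228 for inx-21 in edgeR's quasi-likelihood test. With library totals in place of TMM, which moved the median of all genes to 0.03, inx-14 was at 0.018 and inx-22 at 0.0037, both reversed in sign. With 1 library left out, the log2 fold changes ranged from -0.16 to -0.04 for inx-8, -0.10 to -0.01 for inx-9, -0.079 to 0.031 for inx-14, 0.08 to 0.13 for inx-21 and -0.063 to 0.0080 for inx-22. The cause was not tested.

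The counts over all genes moved far more. Genes with an adjusted p under 0.05, 44 in edgeR, were 7 with library totals, 435 with DESeq2, 745 with no minimum, 17 with filterByExpr, 24 with the replicate block, 0 with the length trend removed (1258 at an unadjusted p under 0.05) and 0 with the block as well (1120), and 0 to 391 with 1 library left out, the highest without the third solitary library. Genes past both thresholds, 2 in edgeR, were 1, 1, 57 and 1 in the first 4 of these settings, 2 with the block, 0 in both length settings and 0 to 70 with 1 library left out. The replicate numbers gave no clear pairing: same-numbered libraries had deviations correlated at 0.209, -0.301 and -0.298, and not every library correlated best with its own number. Deviations from a group mean cancel out within the group, so these correlations cannot decide whether libraries were paired.

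The order of the 5 levels held in all alternatives run. Their log2 ratios moved with the length used: inx-14 to inx-22 was 0.093 with coding length, and without division by length inx-22 to inx-8 was 0.38, inx-8 to inx-21 was 1.18 and inx-21 to inx-9 was 1.25, against 0.01, 0.15, 1.47 and 0.91 per exonic kilobase. The log2 ratio of inx-8 to inx-9 was 2.43 with coding length, against 2.37. With 3 libraries per group, changes within the stated intervals cannot be told from none.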
